A study of Mus musculus with 4 samples.

Results

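*Gpc3*, *Meox2*, *Ajap1*, *Lppr5* and *Colec10* had the 5 largest fitted rises after purmorphamine in cultured mouse ureters that lack *Pparg* in the epithelium. They are taken as chosen by their log2 fold change of purmorphamine over DMSO, with the direct feedback genes of the Hedgehog pathway left aside, and are 5 of the 29924 gene names on the array. The array carried 7 probes for them, each printed at 4 spots.

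Ureters were explanted at postnatal day 0 and cultured for 8 days with 2 µM purmorphamine, an agonist of SHH signaling, or with its solvent DMSO. Control ureters carried the floxed *Pparg* allele without cre, labelled *Pparg* (fl/?). *Pparg-cKO* ureters were *Pax2-cre*/+; *Pparg* (fl/fl). *Pax2-cre* recombines in the nephric duct and in the epithelia that descend from it. RNA came from pools of ureters sorted by sex, and the number of ureters in a pool is not given in the sources used here. Each of the 4 two-colour arrays compared the purmorphamine pool with the DMSO pool of the same genotype and sex, which makes 8 pools in 4 groups of 2. Replicate 1 was male and replicate 2 was female, with the dyes exchanged between them, so that sex and dye orientation cannot be told apart. All 4 arrays lay on 1 slide. Between 66.3% and 70.5% of the gene spots of a channel were well above background, and no gene spot was saturated. With 2 arrays per genotype, the number of arrays limits the precision of every value.

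Hedgehog ligands are made by the epithelium of the ureter and act on the surrounding mesenchyme, where they relieve the inhibition of Smoothened by the receptor Patched and activate the GLI transcription factors. Purmorphamine binds Smoothened and turns on the pathway without a ligand. *Ptch1*, *Gli1* and *Hhip* are transcribed in response and feed back on the pathway. The 5 genes described here encode proteins of different kinds. GPC3 is a glypican, a heparan sulfate proteoglycan anchored to the cell surface that can bind Hedgehog ligands and restrain signaling. MEOX2 is a homeobox transcription factor of the mesenchyme. AJAP1 is a transmembrane protein associated with adherens junctions. LPPR5, now named PLPPR5, is a membrane protein related to the lipid phosphate phosphatases. COLEC10 is a secreted collectin, a C-type lectin that can start the lectin pathway of complement.

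Every level below was read by a probe of 60 bases. The first 30 bases of each are shown because the result for *Gpc3* depends on the probe, in the orientation of the deposited table and in lower case throughout. Coordinates are those of the array design in the mouse genome build mm9, and no annotation of that build was used to place the probes in exons or untranslated regions.
Gpc3, probe A_52_P23225, chrX:49625740-49625799, minus strand: aaatggtatctttatgaggatggtaaattt
Gpc3, probe A_55_P2165344, chrX:49740892-49740951, minus strand: gctctcagttattgggagtgaactttgcat
Meox2, probe A_51_P383001, chr12:37905809-37905868, plus strand: agacattaggatcataggcaaatcagttac
Ajap1, probe A_52_P620898, chr4:152747397-152747456, minus strand: cgactgccaacgagtgagcctgagaaccag
Ajap1, probe A_55_P2032643, chr4:152756374-152756433, minus strand: gataggcatctcatccctgtggcctttgtg
Lppr5, probe A_55_P1987291, chr3:117392323-117392382, plus strand: gtgaaagaacagtgggggaggaaagaattc
Colec10, probe A_51_P144160, chr15:54297813-54297872, plus strand: ggtgattctagcagatgctcattcagtctg
The second *Gpc3* probe was designed to the cDNA AK077942, and the others to RefSeq transcripts. The GC content of the whole probes was highest in the first *Ajap1* probe, at 55.0%, and lowest in the first *Gpc3* probe. Levels of different probes are not compared, since each binds with its own strength.

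In *Pparg-cKO* ureters the 5 genes headed the ranking of fitted rises with purmorphamine. Their log2 fold changes there were 2.89 for *Lppr5*, 2.88 for *Colec10*, 2.86 for *Ajap1*, 2.84 for *Gpc3* and 2.68 for *Meox2*. These are taken as the values that chose the genes and are given as a description, without a test, and that of *Colec10* is a fitted value whose untreated side was not well above background. Among genes well above background in all 4 *Pparg-cKO* pools the other members held ranks 1 to 4. The bound for *Colec10*, at least 2.63 on the log2 scale, does not fix its place. The order of the 5 moved with the processing. Just outside the group was *Klf14*, a Krüppel-like transcription factor gene, at 2.66. *Angpt4*, which encodes a ligand of the endothelial receptor TEK, followed at 2.59, *Dner*, which encodes a transmembrane protein with EGF-like repeats, at 2.52, the imprinted gene *Mest* at 2.44 and the neurotrophin receptor gene *Ntrk3* at 2.44. The step from *Meox2* to *Klf14* was thus smaller than the difference between the male and female arrays of either gene, which stood at 2.20 and 3.15 for *Meox2* and at 1.76 and 3.56 for *Klf14*. The 3 feedback genes described here lay lower, with log2 fold changes of 2.19 for *Hhip*, 1.62 for *Ptch1* and 1.34 for *Gli1*.

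The choice of the genes named no genotype and was made with the values of all 4 arrays known, so that their responses in control ureters, too, are given as a description, with no p-value. In control ureters limma across 20231 genes, with Benjamini-Hochberg adjusted p under 0.05, called 74 genes or 0.366% of all genes tested raised and 219 or 1.08% lowered. *Meox2*, *Gpc3* and *Ajap1*, 3 of the 5, were among those raised, and nothing is read from this count. With the replicate block and with processed signals 2 of the 5 were, without *Gpc3*, and with either control array left out or without the filter on dim probes 0 were. *Lppr5* and *Colec10* were higher on both control arrays and were not among the genes called. By the size of the log2 fold change in control ureters, *Meox2* was in place 2 of all genes, *Gpc3* in place 7, *Ajap1* in place 12 and *Lppr5* in place 64, and *Colec10* is given no place because 1 of its untreated pools was not well above background. By the same rule, calls in *Pparg-cKO* ureters came to 392 genes raised (1.94%) and 599 lowered (2.96%). The pools are not stated to come from separate litters or cultures, so that p-values measure the spread between these pools. In RNA of whole ureters, more cells that use a gene and more RNA per cell cannot be told apart.

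**Figure D1:**
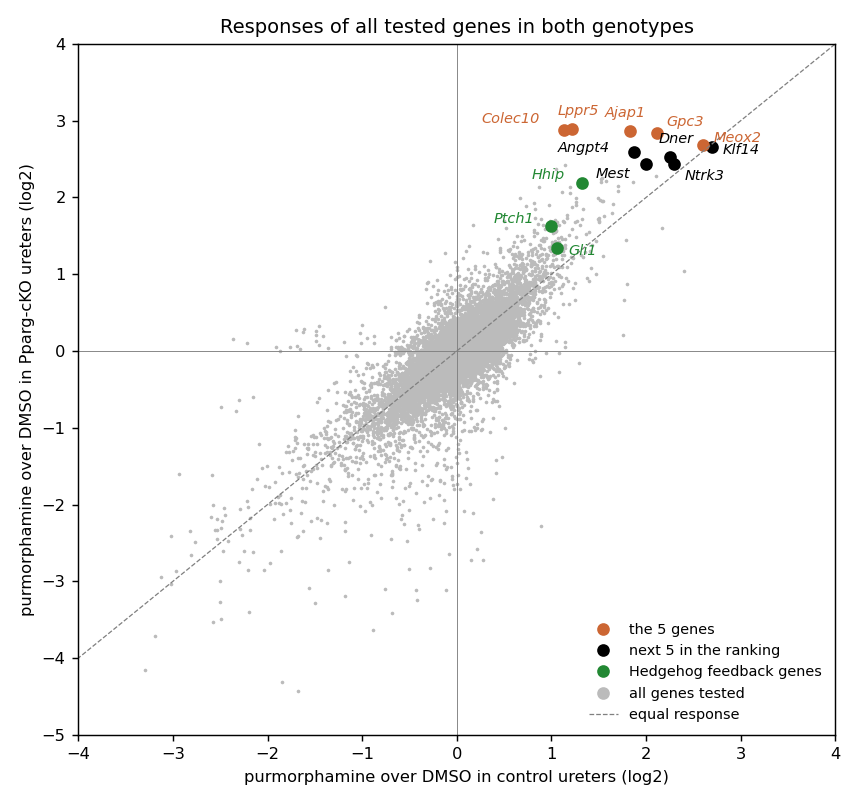
Each point is a gene, placed by its log2 ratio of purmorphamine over DMSO in control ureters (horizontal) and in *Pparg-cKO* ureters (vertical), each the mean of 2 arrays. The 5 genes lie between 2.68 and 2.89 on the vertical axis and spread from 1.14 to 2.60 on the horizontal axis. *Meox2* is the closest of them to the dashed line of equal response. *Colec10*, at 1.14, is placed by fitted values. With DMSO, 1 of its control pools and both *Pparg-cKO* pools were not well above background.

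*Gpc3* was higher with purmorphamine in both genotypes. Its first probe read log2 intensities of 12.003 and 12.563 in the male and female control pools with DMSO and of 14.34 and 14.46 with purmorphamine. The *Pparg-cKO* pools were at 11.895 and 11.895 with DMSO and at 14.475 and 14.999 with purmorphamine. All 4 treated pools were above all 4 untreated pools. The rise in control ureters was 4.34-fold, a log2 fold change of 2.12 ± 0.18 (SE, 2 arrays), and in *Pparg-cKO* ureters it was 7.17-fold. On single arrays the log2 ratio was 2.34 and 1.90 in control and 2.58 and 3.104 in *Pparg-cKO* ureters, with an SD between the spots of an array of at most 0.02.

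The second *Gpc3* probe gave no such rise. It was not well above background in any of the 8 pools, with log2 intensities between 5.97 and 6.12, and its log2 ratios lay between -0.01 and 0.16. It did not pass the filter on dim probes and was not tested, and no fold is given for it. The rise of *Gpc3* thus rests on the probe designed to its RefSeq transcript.

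**Figure D2:**
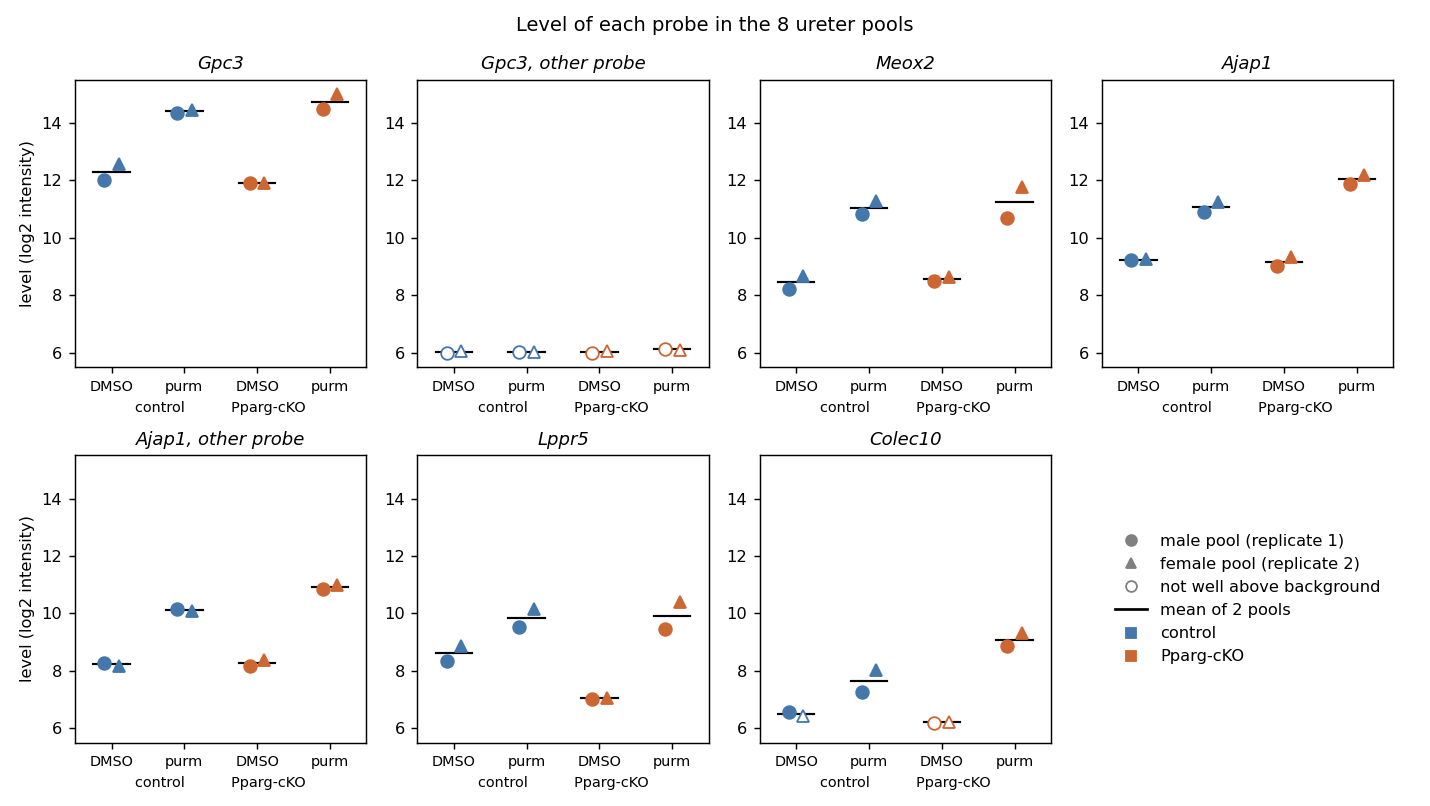
The level of each probe, as log2 intensity, in the 4 groups of 2 pools, with circles for male pools, triangles for female pools, open symbols for pools in which the probe was not well above background, and a line at the mean. Treated pools lie above untreated ones for every probe but the second *Gpc3* probe, which stays between 5.97 and 6.12, and the *Pparg-cKO* pools with DMSO are lowest for *Lppr5*, at 7.003 and 7.069.

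*Meox2* had the strongest response of the 5 in control ureters. Its log2 intensity was 8.22 and 8.68 in control pools with DMSO and 10.81 and 11.29 with purmorphamine. The *Pparg-cKO* pools read 8.48 and 8.62 with DMSO and 10.69 and 11.77 with purmorphamine. The pools of the genotypes overlapped under either treatment. In control ureters the gene was 6.07-fold higher, a log2 fold change of 2.60 ± 0.23 (SE, 2 arrays), and the male and female arrays gave 2.60 and 2.61. In *Pparg-cKO* ureters the rise was 6.40-fold. The log2 fold change in *Pparg-cKO* ureters exceeded that in control ureters by 0.08, as the mean of -0.39 between the male and 0.54 between the female arrays.

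*Ajap1* was read by a pair of probes that were both higher with purmorphamine on every array. The first read log2 intensities of 9.21 and 9.25 in control pools with DMSO and of 10.89 and 11.23 with purmorphamine. In *Pparg-cKO* pools it read 9.01 and 9.31 with DMSO and 11.88 and 12.17 with purmorphamine. The DMSO pools of the genotypes overlapped, and both treated *Pparg-cKO* pools were above both treated control pools, by 0.97 on average. The second probe read 8.28 and 8.16 in control pools with DMSO and 10.16 and 10.08 with purmorphamine. In *Pparg-cKO* pools it read 8.18 and 8.39 with DMSO and 10.86 and 10.98 with purmorphamine, so that the treated pools again separated by genotype, here by 0.81. The first probe's rise in control ureters was 3.55-fold, a log2 fold change of 1.83 ± 0.12 (SE, 2 arrays). The second gave 1.90 ± 0.10 in the fit over all probes. In *Pparg-cKO* ureters the folds were 7.28 and 6.22.

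*Lppr5* had a lower untreated level in *Pparg-cKO* than in control pools. Its log2 intensity was 8.35 and 8.87 in control pools with DMSO and 9.51 and 10.14 with purmorphamine. Untreated *Pparg-cKO* pools were at 7.003 and 7.069 and treated ones at 9.45 and 10.40. With DMSO both *Pparg-cKO* pools were below both control pools, with differences of -1.35 between the male and -1.805 between the female pools, whereas with purmorphamine the pools of the genotypes overlapped and their means differed by 0.10. The rise in control ureters was 2.32-fold, a log2 fold change of 1.21, with 1.16 and 1.27 on the male and female arrays. In *Pparg-cKO* ureters it was 7.41-fold, with 2.45 and 3.33, and its log2 fold change of 2.89 became 3.95 with processed signals.

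*Colec10* was close to background without treatment. In control pools its log2 intensity was 6.57 and 6.44 with DMSO, the second not well above background, and 7.27 and 8.02 with purmorphamine. The *Pparg-cKO* pools were at 6.198 and 6.227 with DMSO, not well above background in either, and 8.88 and 9.30 with purmorphamine. It passed the filter through the treated groups, where it was well above background in all 4 pools. Because the *Pparg-cKO* pools with DMSO give only a bound, *Colec10* was at least 6.19-fold higher with purmorphamine there, taking for the untreated level in each pool the higher of the probe's own signal and the lowest signal well above background. In control ureters the male array read a log2 ratio of 0.69 and the female array 1.58, and since 1 of the 2 untreated pools was not well above background, these are given as read. Both treated *Pparg-cKO* pools were above both treated control pools, by 1.61 between the male and 1.28 between the female pools.

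**Figure D3:**
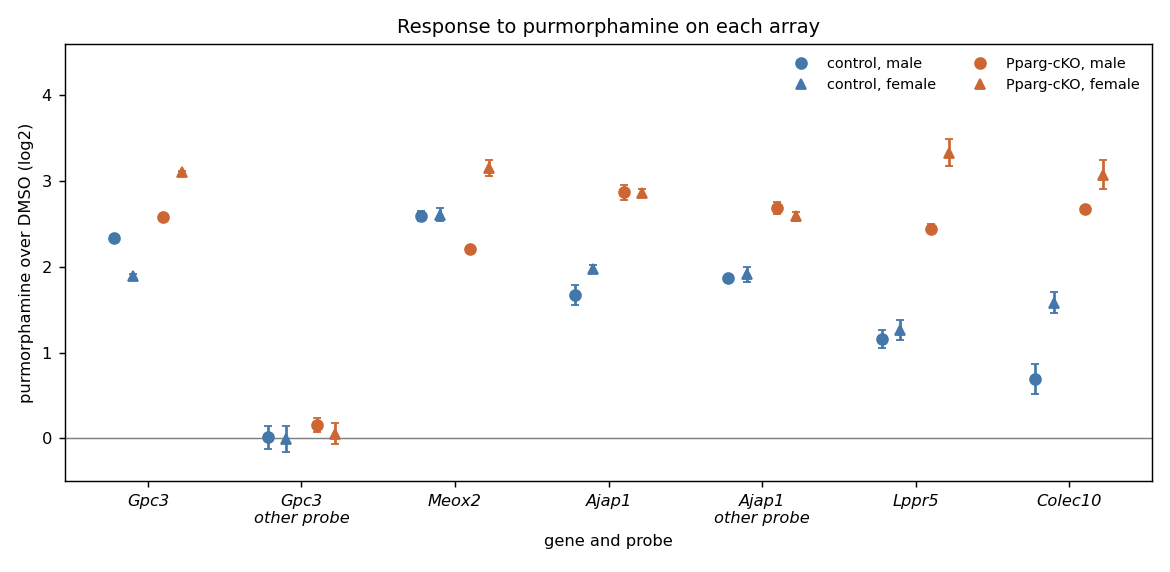
Log2 ratio of purmorphamine over DMSO for each probe on each of the 4 arrays, with bars for the SD between the spots of the probe on that array. For the first *Gpc3* probe, *Ajap1*, *Lppr5* and *Colec10* both *Pparg-cKO* arrays lie above both control arrays, for *Meox2* the control arrays at 2.60 and 2.61 lie between the *Pparg-cKO* arrays, and the second *Gpc3* probe stays near 0.

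Set side by side, the response in *Pparg-cKO* ureters exceeded that in control ureters by 1.74 for *Colec10*, 1.68 for *Lppr5*, 1.04 for the first and 0.74 for the second *Ajap1* probe, 0.72 for *Gpc3* and 0.08 for *Meox2*, all as differences of log2 fold changes. These differences contain the values that chose the genes and were not tested, and that of *Colec10* includes pools not well above background. The difference for *Lppr5* was larger with processed signals, where its log2 fold changes were 3.95 in *Pparg-cKO* and 1.39 in control ureters. The parts of these differences that lay under DMSO and under purmorphamine varied between the genes. For *Lppr5* the DMSO level in *Pparg-cKO* ureters differed from that in control ureters by -1.58 and the purmorphamine level by 0.10. For *Ajap1* the DMSO levels differed by -0.07 by the first and 0.06 by the second probe, and the purmorphamine level was higher in *Pparg-cKO* ureters by 0.97 and 0.81. For *Gpc3* the DMSO levels differed by -0.39 and the purmorphamine levels by 0.34, and most of both came from the female pools, at -0.67 and 0.54 against -0.11 and 0.13 between the male pools. The response of *Gpc3* differed by 1.21 between the female and 0.24 between the male arrays. For *Colec10* the DMSO levels, close to background, differed by -0.29 and the purmorphamine levels by 1.44. Such differences between genotypes are read across arrays, while each response is read within an array.

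The 3 feedback genes were higher with purmorphamine on every array. In control ureters *Ptch1*, the Hedgehog receptor gene, rose by a log2 fold change of 1.00 ± 0.12 (SE, 2 arrays; limma adjusted p = 0.045). *Hhip*, which encodes a decoy receptor, stood at 1.33 ± 0.20 (limma adjusted p = 0.065, 2 arrays) and *Gli1* at 1.06 ± 0.25 (limma adjusted p = 0.12, 2 arrays). In *Pparg-cKO* ureters *Hhip* and *Ptch1* rose, and *Gli1* had a limma adjusted p of 0.054 over 2 arrays. The control values of *Meox2*, *Gpc3* and *Ajap1* were larger than those of all 3 feedback genes. By the same fit that of *Lppr5* was below that of *Hhip* and above those of *Gli1* and *Ptch1*. These differences were not tested. The members were chosen for large rises, so that nothing is read from their places beside the feedback genes. *Colec10* is not placed among them.

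Among the Hedgehog-binding surface proteins that GPC3 belongs to by function, 8 others are described. In control ureters *Ptch1* alone of these rose, against 0.366% of all genes raised. The median log2 fold change there without *Gpc3* was 0.58, against 0.02 over all genes. In *Pparg-cKO* ureters 3 of the 8 rose and none fell, against 1.94% of all genes raised, with a median of 0.345 against -0.002 over all genes. These were *Ptch1*, *Hhip* and *Scube2*, a gene for a secreted protein that helps release the ligand, at 1.47 ± 0.15 (SE; limma adjusted p = 0.020, 2 arrays). The co-receptor genes *Cdon*, *Boc* and *Gas1* had log2 fold changes of 0.60, 0.01 and -0.18 there and did not pass the test.

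Of 12 other glypicans, syndecans and enzymes that edit heparan sulfate, none passed in control ureters, where their median was 0.03 on the log2 scale. The other 5 glypicans lay between -0.10 and 0.21 in control and between -0.24 and 0.15 in *Pparg-cKO* ureters. *Sdc2*, a syndecan gene, was the only one of the 12 to rise in *Pparg-cKO* ureters, where 1.94% of all genes rose, by a log2 fold change of 0.97 ± 0.14 (SE; limma adjusted p = 0.034, 2 arrays), and stood at 0.67 in control ureters with a limma adjusted p of 0.098 over 2 arrays. Of 5 insulin-like growth factor genes and receptors, a group often studied with GPC3, the receptor gene *Igf1r* alone rose in *Pparg-cKO* ureters. Its log2 fold change was 0.74 ± 0.11 (SE; limma adjusted p = 0.036, 2 arrays), where 1.94% of all genes rose. *Igf1* was lower on all 4 arrays, at -0.60 in control and -0.61 in *Pparg-cKO* ureters, without passing. *Igf2* stood at 0.40 in control and 0.16 in *Pparg-cKO* ureters, where neither passed.

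Of 15 mesenchymal transcription factors tested beside *Meox2*, 2 rose and none fell in control ureters, where 0.366% of all genes rose, and the median was 0.47 on the log2 scale. *Foxd1*, a forkhead gene of the mesenchyme, rose by 2.10 ± 0.10 (SE; limma adjusted p = 0.013, 2 arrays) and *Foxd2*, its relative, by 0.99 ± 0.13 (SE; limma adjusted p = 0.046, 2 arrays). In *Pparg-cKO* ureters 8 of the 15 were called raised, against 1.94% of all genes, and none lowered, with a median of 0.59. Of the 8, 7 were well above background in every pool, and *Tcf15*, at 0.59, in 3 of the 8 pools, so that its call is not read as a rise. The 7 were *Foxd1* at 2.29, *Foxd2* at 1.70, the forkhead genes *Foxl1*, *Foxf1* and *Foxc2* at 1.497, 1.27 and 0.76, *Twist2* at 1.27 and the ureteric mesenchyme gene *Tbx18* at 0.68. In control ureters *Foxl1*, *Foxf1*, *Foxc2*, *Twist2* and *Tbx18* stood at 0.81, 0.59, 0.49, 1.03 and 0.42, higher on both arrays, without passing. *Foxf1* and *Foxl1* are known to respond to Hedgehog signals in other organs. Work cited by the authors places FOXF1 in a signaling axis with SHH in the developing ureter, too. The lists were not tested against each other or against all genes. *Meox1*, the closest relative of *Meox2*, stood at 0.18 ± 0.32 (SE, 2 arrays) in control and 0.21 ± 0.32 in *Pparg-cKO* ureters, and on the 2 control arrays it read -0.47 and 0.83.

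The families of *Ajap1*, *Lppr5* and *Colec10* gave 1 of 10, 0 of 13 and 1 of 6 genes raised beside them in *Pparg-cKO* ureters, against 1.94% of all genes, and 0, 0 and 1 in control ureters, against 0.366%. Of 10 other adherens junction genes none rose or fell in control ureters, and in *Pparg-cKO* ureters *Cdh11*, a cadherin gene of mesenchymal cells, alone rose, by 0.63 ± 0.10 (SE; limma adjusted p = 0.040, 2 arrays). *Bsg*, the gene of a known partner of AJAP1, had log2 fold changes of 0.00 and 0.06, and *Pianp*, the gene most related to *Ajap1*, of 0.40 and -0.65, without passing the test. Of 13 other genes of the lipid phosphate phosphatases, their relatives and receptors for lysophosphatidic acid, none passed in either genotype. *Lppr2*, *Lppr3* and *Lppr4* stood at 0.05, -0.12 and -0.12 in control and at -0.06, -0.52 and 0.31 in *Pparg-cKO* ureters, and *Lppr1* did not pass the filter on dim probes. Of 6 other collectins, ficolins and their proteases, *Colec11*, which encodes the collectin that pairs with COLEC10, alone passed. It rose by 1.19 ± 0.15 in control (SE; limma adjusted p = 0.045, 2 arrays) and by 1.52 ± 0.15 in *Pparg-cKO* ureters (limma adjusted p = 0.019, 2 arrays). *Masp1*, a protease gene of the same pathway, stood at -0.46 and -0.23 without passing.

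**Figure D4:**
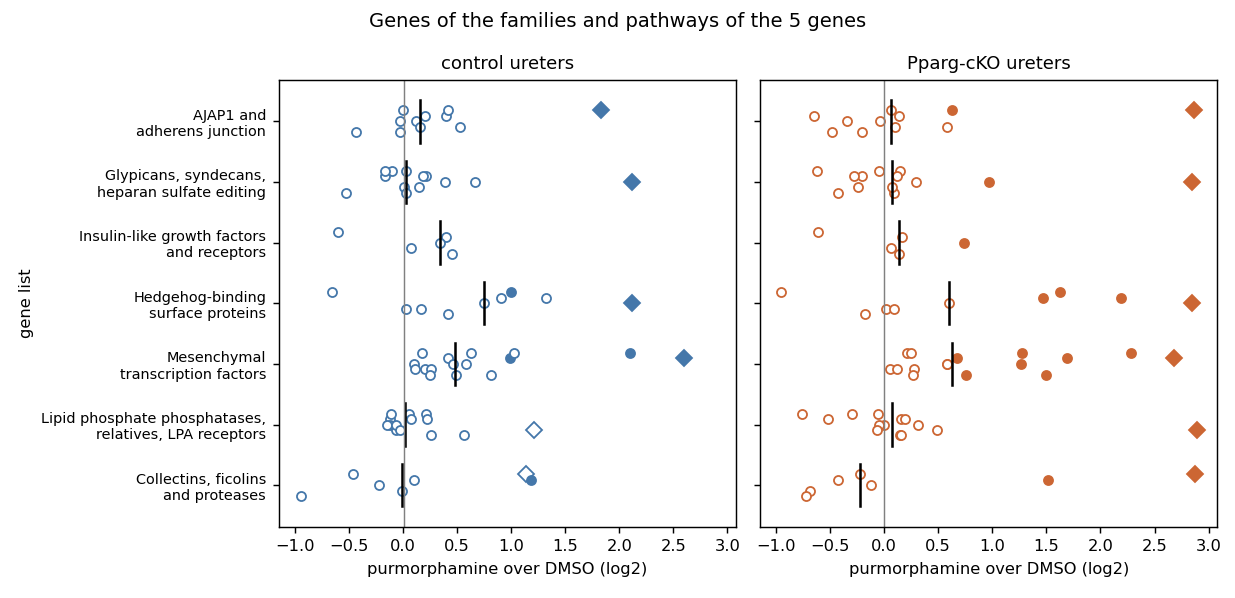
Log2 ratio of purmorphamine over DMSO for the tested genes of 7 lists in control (left) and *Pparg-cKO* ureters (right), with diamonds for the 5 genes, circles for the others, filled symbols where the limma adjusted p was under 0.05 (for the 5 genes a description only), a black line at each list's median and a grey line at the median of all genes. Beside the 5 genes, filled symbols among the mesenchymal transcription factors number 2 of 15 in control and 8 of 15 in *Pparg-cKO* ureters, the latter with *Tcf15*, which was well above background in 3 of the 8 pools.

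Markers of the tissue named in the labels were present. All 7 urothelial, all 7 fibroblast and all 6 smooth muscle markers were well above background in every pool. So were all 5 endothelial, all 5 pericyte, all 5 leukocyte markers and all 5 of Schwann cells and neurons. The fat cell genes *Adipoq*, *Plin1* and *Cidec*, the mesothelial genes *Wt1* and *Gpm6a*, and *Ckm* and *Ttr* were also well above background in all 8 pools. *Ckm* is listed here under skeletal muscle, and the authors use its protein as a smooth muscle cell marker of the ureter. *Lep*, *Lrrn4*, *Myog*, *Myod1*, *Alb* and *Apoa1* of the same lists did not pass the filter on dim probes.

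Markers of other cell types moved with the treatment beside the 5 genes. Of 5 endothelial markers *Tek* rose in control ureters by 1.26 ± 0.15 (SE; limma adjusted p = 0.042, 2 arrays). Of all genes, 0.366% were raised there. *Tek* and *Cdh5* rose in *Pparg-cKO* ureters, by 2.00 and 1.25, against 1.94% of all genes. *Cdh5* stood at 1.31 in control ureters without passing. *Emcn*, *Kdr* and *Pecam1* were higher on all 4 arrays without passing. They stood at 1.11, 0.88 and 0.49 in control and at 1.10, 0.49 and 0.50 in *Pparg-cKO* ureters. The list's summed intensity, led by *Cdh5*, was 11964 and 7854 in control pools with DMSO and 20224 and 21640 with purmorphamine. In *Pparg-cKO* pools it was 14269 and 15233 with DMSO and 28382 and 32641 with purmorphamine. All 6 smooth muscle markers were higher with purmorphamine on all 4 arrays, with median log2 fold changes of 0.71 and 0.85, and none passed the test. Their summed intensity, led by *Acta2*, was 256544 and 349326 in control pools with DMSO and 485897 and 491120 with purmorphamine. In *Pparg-cKO* pools it was 317871 and 276559 with DMSO and 487338 and 587016 with purmorphamine. Both sums were higher in every treated pool than in any untreated pool, and their part in the rise of the 5 genes was not tested.

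The 7 fibroblast markers had median log2 fold changes of 0.44 and 0.46, with none called, and *Aldh1a2*, a gene of the lamina propria, at -0.56 and -0.36. The summed intensity of the list, led by *Dcn*, lay between 298292 and 364664 in the untreated and between 408203 and 462429 in the treated pools. Of 7 urothelial markers the superficial cell gene *Upk1b* rose and *Epcam* fell in control ureters, by log2 fold changes of 0.89 and -0.96. Of all genes there, 0.366% rose and 1.08% fell. In *Pparg-cKO* ureters *Upk1b* and *Upk2* rose and *Epcam* fell, against 1.94% of all genes raised and 2.96% lowered. The list's median there was -0.34, and *Krt5*, *Trp63* and *Cdh1*, at -1.22, -0.595 and -0.34, and *Krt8*, at 0.10, did not pass. Summed intensity, led by *Krt5*, went from 276513 and 297472 with DMSO to 324950 and 336827 with purmorphamine in control pools. In *Pparg-cKO* pools it went from 248894 and 293806 to 246504 and 235506. Of 5 leukocyte markers *Aif1* fell in both genotypes, with log2 fold changes of -0.89 and -0.96, against 1.08% and 2.96% of all genes lowered. *Csf1r*, *Ptprc* and *Cd68* were lower on all 4 arrays, with -0.865, -0.62 and -0.41 in control and -0.77, -0.48 and -0.33 in *Pparg-cKO* ureters, and did not pass the test. *Cd3e*, a T cell gene, stood at 0.35 and 0.02 without passing. The summed intensity of the list, led by *Cd68*, lay between 87327 and 107891 in the untreated and between 53540 and 78597 in the treated pools, so that every treated pool was below every untreated one. Its part in the values of the 5 genes was not tested. Of 5 nephron markers *Umod*, *Slc12a1* and *Nphs1* were called lowered in *Pparg-cKO* ureters, against 2.96% of all genes. *Slc12a1* and *Nphs1* were well above background only in the 2 *Pparg-cKO* pools with DMSO, through which they passed the filter, and *Umod* was in 5 of the 8 pools, so that nothing is read from this count. Their summed intensity, led by *Umod*, was 1104 and 1212 in the *Pparg-cKO* pools with DMSO and 415 and 419 with purmorphamine, and 668, 382, 375 and 382 in the control pools. The mesothelial marker *Wt1* fell in *Pparg-cKO* ureters, where 2.96% of all genes fell. Its log2 fold change was -2.75 ± 0.37 (SE; limma adjusted p = 0.031, 2 arrays). In control ureters *Wt1* stood at -1.14, with -1.16 and -1.125 on the male and female arrays, without passing. *Gpm6a*, the other mesothelial marker tested, stood at 0.39 in control and -0.22 in *Pparg-cKO* ureters without passing. Of 5 pericyte markers *Pdgfrb* alone rose in *Pparg-cKO* ureters, by 0.71, against 1.94% of all genes. None of 5 markers of Schwann cells and neurons and none of 3 of fat cells passed. The fat cell sum, led by *Adipoq*, was 3999 in the male *Pparg-cKO* pool with purmorphamine and between 24406 and 110683 in the other pools. On that male array *Gpc3*, *Meox2*, *Lppr5* and *Colec10* had smaller responses than on the female *Pparg-cKO* array. The first and second *Ajap1* probes read 2.87 and 2.68 on the male and 2.86 and 2.59 on the female array. *Ckm* stood at 0.95 in control and 1.11 in *Pparg-cKO* ureters without passing. *Ttr*, listed here as a hepatocyte marker and also known from superficial urothelial cells, rose in *Pparg-cKO* ureters by 1.25.

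**Figure D5:**
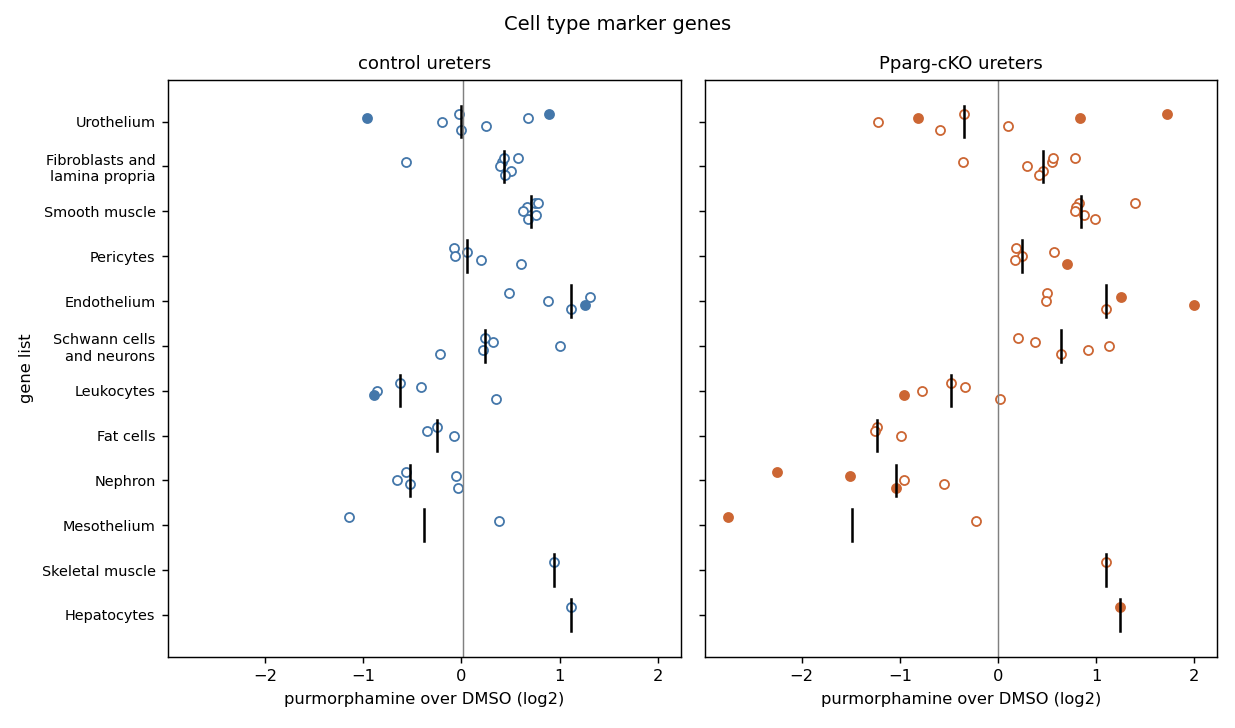
Log2 ratio of purmorphamine over DMSO for the tested markers of 12 cell types in control (left) and *Pparg-cKO* ureters (right), filled where the limma adjusted p was under 0.05, with a black line at the median of each list and a grey line at that of all genes. Endothelial and smooth muscle medians lie highest among lists of 5 or more markers. Leukocyte, nephron, fat cell and mesothelial medians are below 0 in both genotypes, as is the urothelial median, at -0.001 in control and -0.34 in *Pparg-cKO* ureters. No nephron marker was well above background in every pool.

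Over the 8 pools the levels of the 5 genes went together, with Pearson's r between 0.83 for *Lppr5* and *Colec10* and 0.98 for *Meox2* and *Gpc3*. The pools share arrays in pairs and fall into treated and untreated groups, so that any gene with a strong response comes out alike, and r is given only as a description. Among the 3763 other genes tested whose log2 intensity spanned at least 1, those most like *Gpc3* were *Tbxa2r*, *Adamtsl1* and *Mest*, with r from 0.992 to 0.995. *Prss35*, *Akap12* and *Tbxa2r* were most like *Meox2* and *Timp3*, *Dact1* and *Col11a1* most like *Ajap1*. *Igsf10*, *Mc5r* and *Bace2* were most like *Lppr5*, with r from 0.988 to 0.992. *Tbata*, the unnamed transcript TC1780610 and *Hic1* were most like *Colec10*. These genes' own log2 fold changes ranged from 0.59 for *Tbata* to 2.00 for *Mest* in control ureters.

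RefSeq promoters, 250 bases before to 50 after the start in build GRCm38.p6, were at hand for 4 of the 5 genes, *Colec10* not being among those used here. The GLI consensus GACCACCCA, searched on both strands, was in none of the 4, nor was any match with 1 mismatch. It stood in 83 of all 32851 promoters (0.253%), and in 2214 (6.74%) with up to 1 mismatch. No match says only that these letters are not in this window. The promoters differed in their number of CpG dinucleotides, which was 51 for *Ajap1*, 30 for *Gpc3*, 13 for *Lppr5* and 12 for *Meox2*, where the median of all promoters was 7. As many as in *Ajap1* were found in 0.7% of promoters.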

How the data were processed

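Per the labels and file headers, the authors scanned 4 two-colour Agilent arrays and deposited Feature Extraction output, with mean, background and processed signal intensity and a log10 ratio per spot. The deposited series table holds a score, a signed fold change per probe and array, whose scaling is not given in the sources used here, and the log2 of it has a median of 0 on every array. Its direction was purmorphamine over DMSO (r from 0.995 to 0.998 with the processed signals turned that way).

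Mean signals were background-corrected (normexp, offset 50) and loess-normalized in limma 3.58.1 (R 4.3.3), control spots at weight 0, outlier spots left out (3.04% to 3.21%) and a probe's spots averaged. Of 39429 probes, 27066 passed the filter, being well above background in 2 pools of the same group, and each of 20231 genes was represented by its brightest probe. Log ratios were fitted with 1 coefficient per genotype, swapped arrays turned. Levels per pool followed Aquantile normalization. The members and gene lists were chosen with earlier results of these data known. Beside the members, the text names the feedback genes, the listed relatives, the 5 genes next in the ranking and the 3 most alike per member. The fit was tested on simulated data. Sequences of promoters are RefSeq's, and all 5 genes matched its gene table. Some genes of the lists are not reported here.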

Additional observations from a re-analysis of the deposited data

How the results depend on the processing

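All 5 genes stayed higher with purmorphamine in both genotypes under each alternative run for them, with log2 fold changes in control ureters from 2.60 to 2.89 for *Meox2*, 1.90 to 2.34 for *Gpc3*, 1.68 to 2.04 for *Ajap1* and 1.16 to 1.397 for *Lppr5*. No range is given for *Colec10*, whose untreated control pools were well above background in 1 of 2. In *Pparg-cKO* ureters the ranges were 2.20 to 3.15 for *Meox2*, 2.58 to 3.104 for *Gpc3*, 2.75 to 3.07 for *Ajap1* and 2.45 to 3.95 for *Lppr5*, highest with processed signals, and the fitted value of *Colec10* reached 3.73 with a normexp offset of 16. Of the 5, 3 were called in control ureters, 4 with median centring, with the 2 control arrays alone or by the methods' rule, 2 with processed signals, and 0 without the filter on dim probes or without either control array (0 to 4 over the arrays left out). Genes raised in control ureters, 74, became 13 with processed signals, 178 with median centring, 2 without the filter, 210 with the 2 control arrays alone, 423 by the methods' rule of 1.5-fold on both arrays, and 0 to 210 with an array left out, 0 without either control array. Genes lowered, 219, became 55, 119, 11, 379 and 565 in that order, 138 in the separate-channel fit and 0 to 379 with an array left out. In *Pparg-cKO* ureters 392 raised genes became 125 without the filter, 595 with separate channels, 597 by the methods' rule and 45 to 419 with an array left out, and 599 lowered became 336 with processed signals, 182 without the filter and 108 to 562 with an array left out, both lowest without the female *Pparg-cKO* array. Raised genes were 25.3% of the calls in control ureters, 59.9% with median centring, which moved the median of all genes there from 0.02 to 0.14, and 41.8% with separate channels. With the replicate block, 22 raised and 126 lowered genes were called in control ureters, and 2 of the 5 genes. The numbers share sex and dye, no stated litter, and same-numbered arrays' deviations correlated at 0.121. The cause of these shifts was not tested. The processed signals left out 559 genes at the floor of 15. Leaving out an array leaves 1 in its genotype, assumed to vary like the other genotype's. With 2 arrays a genotype and *Colec10* near background, small differences were not detectable.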
